A study of Mus musculus with 2 samples.

Results

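Among the regions enriched by immunoprecipitation of Scl in mouse blood progenitors, 252 had no GATA site near their centre. They were found in sample 2 of the study. Distinct reads were moved 69 bp towards the fragment centre and counted in windows of 200 bp, and a region needed at least 8 reads and at least 5 times the larger of the genome average and the surrounding 10 kb. Of the 951 regions called, 529 had at least 70% of the bases within 100 bp of the summit covered by a read, so that their letters were known. In 277 of these, the letters WGATAR (W is A or T, R is A or G) occurred on either strand within 100 bp of the summit, and in 252 (47.6%, exact binomial 95% interval 43.3 to 52.0) they did not. These 252 regions, chosen by their read counts and their letters, are the subject here, and the 277 regions with the site serve as the comparison.

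All reads came from HPC-7, an early haematopoietic line derived from mouse embryonic stem cells and grown in medium with stem cell factor, with no further treatment or genetic change given in the labels. After fixation with formaldehyde at 0.4%, chromatin in pieces of 200 to 500 bp was immunoprecipitated once with antiserum against Scl. The DNA was divided: sample 1 joins the portions of lanes 7 and 8 (build mm9), and sample 2 is the portion sequenced at another site (build mm8), so recurrence between the samples is technical. No control library was used here. Sample 2 gave 4296527 reads with a unique place, and 4150610 of these were distinct and nuclear, or 0.437 per average 200 bp, and sample 1 held 5632119 distinct reads, 1.36 times as many. Depth of this order leaves a region at the lower limit of 8 reads with a wide counting error. Every interval and p-value here covers the counting of regions and nothing more, since regions of a single library are not replicates.

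Scl (Tal1) is a basic helix-loop-helix factor that pairs with a class I partner of the E2A family and contacts the E-box CANNTG. In blood cells it works in a complex with Lmo2 and Ldb1, in which a GATA factor often supplies the second DNA contact through WGATAR. Scl also reaches chromatin beside ETS, RUNX and other factors, and a mutant Scl that cannot bind DNA retains part of its functions.

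Some members carried the letters of a repeat and others those of transcription factor sites, and sequences of both kinds are printed. Whether the latter are single-copy DNA was not tested. The members with the most reads mostly shared long words with one another. In the lines below, from the members with the most reads among those that hold it, capitals mark a word of 16 letters found in 7 of the 15 members of this word family whose letters were searched. The word and its surroundings are letters of the mouse major satellite, the tandem repeat of pericentromeric heterochromatin, as known from textbooks and not from an annotation used here.
chr9:35055060-35055119, mm8, plus strand: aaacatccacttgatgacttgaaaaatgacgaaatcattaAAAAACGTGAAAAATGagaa
chr5:3001259-3001302, mm8, minus strand: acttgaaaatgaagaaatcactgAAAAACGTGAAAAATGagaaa
chr14:18209497-18209554, mm8, plus strand: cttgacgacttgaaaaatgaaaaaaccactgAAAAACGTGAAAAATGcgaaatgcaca

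Other members held the letters of blood transcription factor sites. In the lines below capitals mark E-boxes (CANNTG), the ETS core MGGAAR (M is A or C) and the RUNX core TGYGGT (Y is C or T) on either strand. All are on the plus strand of mm8, as read in sample 2. These members had many reads and plus and minus read ends apart. Those on chromosome 9 and near Cdk18 were added after the test of CACCTG as examples of that E-box, and that on chromosome 13 stands for members with few of these letters.
chr1:39341030-39341130, at 28683 bp from the Rpl31 start: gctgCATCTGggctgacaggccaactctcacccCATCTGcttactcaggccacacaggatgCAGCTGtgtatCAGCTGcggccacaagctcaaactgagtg
chr8:125586934-125587034, upstream of Cbfa2t3: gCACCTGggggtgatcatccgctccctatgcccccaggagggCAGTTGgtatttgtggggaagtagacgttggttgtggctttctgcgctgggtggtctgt
chr1:182687576-182687676, upstream of Sde2: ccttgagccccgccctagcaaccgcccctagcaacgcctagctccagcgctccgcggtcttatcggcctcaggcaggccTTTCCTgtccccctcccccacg
chr10:80785349-80785445, near Smim24: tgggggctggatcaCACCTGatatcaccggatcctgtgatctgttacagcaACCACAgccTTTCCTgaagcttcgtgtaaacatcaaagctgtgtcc
chr9:57219506-57219606, at -82722 bp from the Rpp25 start: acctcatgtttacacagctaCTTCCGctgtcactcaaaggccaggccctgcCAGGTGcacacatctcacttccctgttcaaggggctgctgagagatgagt
chr1:133923207-133923307, near Cdk18: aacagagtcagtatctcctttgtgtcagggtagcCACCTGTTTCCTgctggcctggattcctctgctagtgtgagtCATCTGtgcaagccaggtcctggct
chr13:20191102-20191202, with many reads and none of these letters in this stretch: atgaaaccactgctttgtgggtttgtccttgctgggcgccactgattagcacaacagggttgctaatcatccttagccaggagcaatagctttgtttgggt

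Reads at the members ranged widely, as the rule allowed. The best 200 bp window held between 8 and 173 distinct reads, with a median of 10, and the enrichment lay between 5-fold and 40.98-fold with a median of 10.9-fold. Of the 252 members, 75 had exactly 8 reads, the least the rule accepts, and 118 (46.8%) had 8 or 9. Of the 277 regions with a GATA site, 60 (21.7%) had 8 or 9 reads and the median was 13. At the lower limit of the fold, the members on chromosome 8 at chr8:20403401-20403600 and chr8:73119101-73119300 stood at 5-fold with 16 and 8 reads, and a window on chromosome 1 at chr1:173404551-173404750 missed it at 4.95-fold with 10 reads. At the limit of bases read, several members stood at 70.1%, among them the region at chr15:74913551-74914350 with 117 reads. The nearest regions left out, among them chr5:115183251-115183800 with 43 reads, stood at 69.7%.

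Few members were read in full. A median of 78.1% of the bases within 100 bp of the summit was covered in members and 86.1% in regions with the site. All bases there were read in 2 members, and at least 90% of them in 47. Of the regions with at least 90% of bases read, 29.4% had no WGATAR, against 47.6% of all 529. With at least 12 reads the share was 37.5%, and the parts of coverage and of read number in this were not separated. An unread WGATAR in part of the members therefore cannot be told apart from its absence. The median GC content of the read bases was 52.8% in members and 52.3% in the others, and CpG pairs made up a median of 1.45 and 1.56 per 100 base pairs read.

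In most of the 25 members with at least 30 reads, reads of both strands began over the same stretch. The strand distance is the median minus-strand end less the median plus-strand end within 300 bp of the summit. It was under 69 bp, the distance by which reads were moved towards the fragment centre, in 20 of the 25 (80%). Of the 21 regions with a GATA site and at least 30 reads, 6 (28.6%) had such a short distance. The word family above supplied 14 of the 25 (56%) and 3 of the 21 (14.3%). It comprised 19 regions on 12 chromosomes, 16 of them members, with 17 to 173 reads and strand distances of -12 to 40 bp in the members. The remaining 3 regions of the family held WGATAR. A second family of 3 members with 8 or 9 reads and another family of 2 members and 1 region with the site also shared words of 16 letters.

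The member with the most reads, chr9:35054701-35055350, had 122 plus-strand and 137 minus-strand reads, and 173 distinct reads in the best window. In sample 1 the matching window held 203 distinct reads, 136 of them found in lane 7 and 191 in lane 8, so both lanes and both sites showed it. A member on chromosome 2, chr2:98464601-98464800, had 135 reads in sample 2 and 123 in sample 1, on a background so high that the enrichment was 5.20-fold and 5.01-fold. The member at chr5:3000001-3001350 had 148 reads in sample 2 and 1 in sample 1. Its place in mm9 rested on an offset of 670194 bp between the builds, whereas that of the next member on the chromosome, at chr5:3676201, was -6006 bp, so this placement is uncertain.

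A region outside the families, chr11:108827601-108828300, had 80 distinct reads at 26.3-fold in sample 2 and 133 at 26.3-fold in sample 1. Its strand distance was 5.0 bp, its GC content 67.0% and its CpG count 12.9 per 100 pairs, the highest of all members. Only 1.15% of its reads had a near match elsewhere in the genome, but 85.1% differed from the reference by 1 or 2 bases. The median share of reads with such differences was 37.5% in members and 28.6% in the regions with a GATA site.

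The strand distance divided the members. It was under 69 bp in 61 of the 252 members (24.2%, exact binomial 95% interval 19.1 to 29.98) and in 25 of the 277 regions with a GATA site (9.03%, 5.93 to 13.03). This difference passed Fisher's exact test (two-sided, adjusted p = 3.78e-06 over 5 shares). The other 191 members had plus and minus ends apart, and the median over all members was 123.75 bp, against 134 bp. Of the 61 members with a short distance, 23 had mostly reads with a near match elsewhere and 38 did not. Without all regions of that kind the shares were 17.4% and 8.06%, and the difference still passed (Fisher's exact test, adjusted p = 0.0036).

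**Figure D1:**
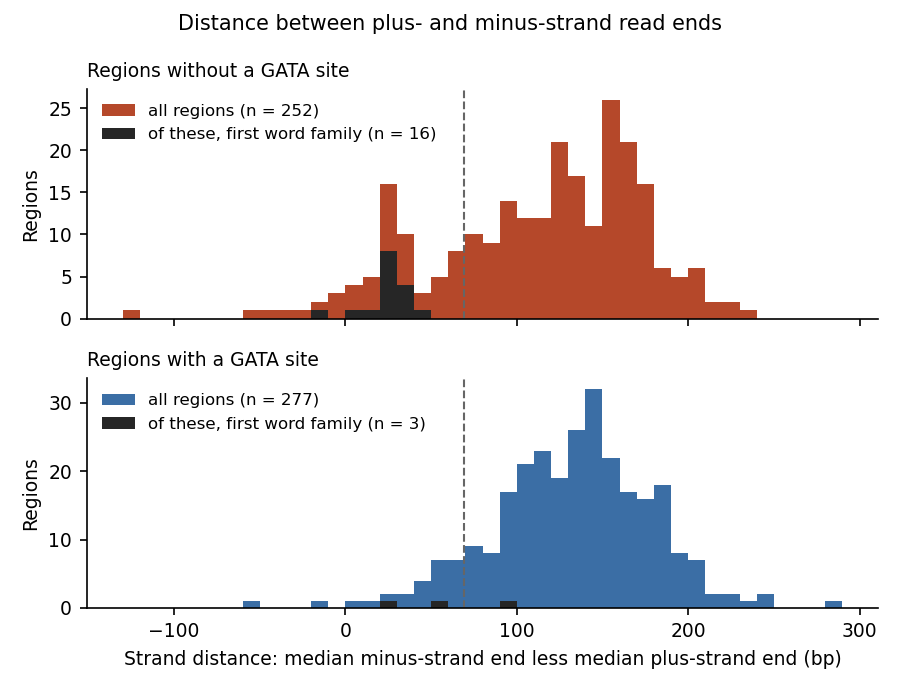
Histogram of the strand distance in bp (x axis) against the number of regions (y axis), for the 252 regions without a GATA site (top) and the 277 with one (bottom); the dark bars are regions of the first word family and the dashed line stands at 69 bp. Members show a second group around 20 to 40 bp, to which the word family contributes.

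Near matches in the genome also set the classes apart. A read has a near match when the aligner found another place for it with 1 or 2 errors. Most reads had one in 33 of 252 members (13.1%, exact binomial 95% interval 9.19 to 17.9) and in 4 of 277 regions with the site (1.44%, 0.395 to 3.66; Fisher's exact test, adjusted p = 1.00e-07). Among regions with a strand distance of at least 69 bp the shares were 5.24% and 0.397% (Fisher's exact test, adjusted p = 0.0022). The member on chromosome 15 at chr15:74913551-74914350, 25114 bp downstream of the start of Ly6c2, a gene of the Ly6 cluster of surface antigens, joined many near matches to separated ends. It had 102 plus-strand and 126 minus-strand reads, 91.1% of its reads had a near match, and its strand distance was 142.5 bp. Sample 1 held 130 reads there, 86 in lane 7 and 120 in lane 8. Around the region (the 10 kb less the central 2 kb) reads were denser than 3 genome averages in 39 members (15.5%) and in 20 of the others (7.22%).

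Sample 1, which the rule did not use, was then examined at the same places. Because the samples are in different builds, a region was placed in mm9 by the local offset at which read ends of both samples coincide, which succeeded for 239 of 252 members and 268 of 277 regions with the site. Of all 507 placed regions, 90.7% reached 2-fold enrichment in sample 1 and 67.3% met the call (8 reads and 5-fold). Of the members, 199 of 239 (83.3%) reached 2-fold, against 261 of 268 with the site (97.4%; Fisher's exact test, adjusted p = 5.44e-08). With at least 12 reads in sample 2 and without regions of near matches, 98.6% of members and 100% of the others did so, and the difference did not pass (adjusted p = 0.509 by Fisher's exact test). The call was met by 123 members (51.5%, exact binomial 95% interval 44.9 to 58.0) and by 218 regions with the site (81.3%, 76.2 to 85.8), and this difference passed too (Fisher's exact test, adjusted p = 3.42e-12). The median count was 10 reads at members and 18 at the others. At 40 members sample 1 held 0 to 2 reads, which was the case at 6 regions with the site. A region placed wrongly in mm9 would also show few reads there, and the placement of single regions was not checked in another way.

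Members had fewer reads in sample 2 to begin with, so the call was compared at like counts. Among regions with 8 or 9 reads in sample 2, 26 of 113 members (23.01%) and 27 of 58 regions with the site (46.6%) were called in sample 1 (Fisher's exact test, adjusted p = 0.00552 over 4 groups). Among those with 13 to 20 reads the shares were 82.2% and 98.9% (Fisher's exact test, adjusted p = 0.0031). The difference did not pass with 10 to 12 reads (66.7% and 77.6%, adjusted p = 0.266) or with 21 or more (82.1% and 94.6%, adjusted p = 0.114, both by Fisher's exact test), although members were lower in each group. In both classes the share was lowest among regions with 8 or 9 reads. The groups matched sample 2 reads but not the surrounding 10 kb, against which the 5-fold of the call is also measured. Median sample 1 counts, members first, were 4 and 7, 11 and 13, 19 and 23, and 34 and 35 from the lowest group up. Some members missed the call on fold alone, such as chr11:3027401-3027600 with 50 sample 1 reads at 4.96-fold. The part of the background in these differences was not tested.

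**Figure D2:**
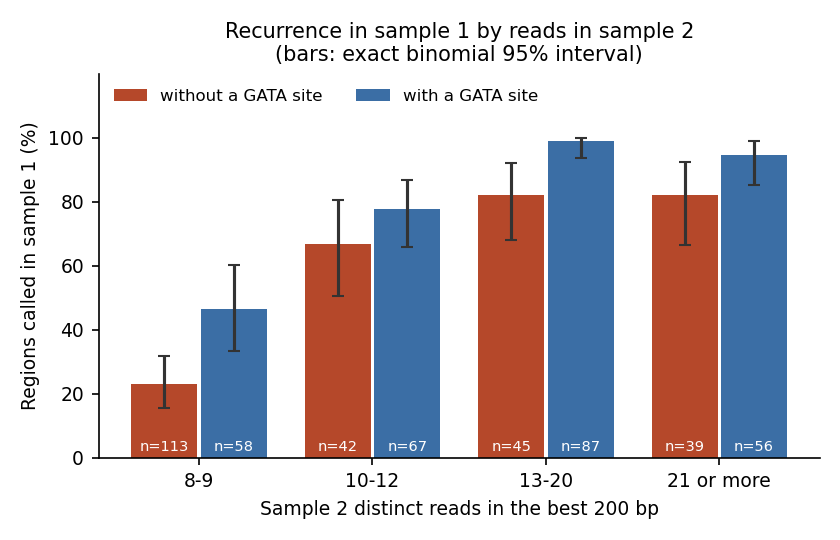
Share of placed regions called in sample 1 (y axis, %) by the number of distinct sample 2 reads in the best 200 bp (x axis), for regions without (red) and with (blue) a GATA site; error bars are exact binomial 95% intervals and n is the number of regions. The share rises from 23.01% to over 82% in members and is lower in members than in the others in each group.

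Read numbers of both samples rose together across members. Pearson's r of log2(reads + 1) was 0.66 and Spearman's rho 0.74 over 239 members, against 0.76 and 0.81 over 268 regions with the site. These are correlations across regions of a single immunoprecipitation, given as a description. The call in sample 1 was met by 34 of 54 placed members with a short strand distance (63.0%) and by 89 of 185 with a distance of at least 69 bp (48.1%). In regions with the site these were 14 of 22 (63.6%) and 204 of 246 (82.9%). Among the placed members with the ETS core, 77 of 125 (61.6%) were called, and among those without it 46 of 114 (40.4%). In regions with the site the shares were 85.5% and 73.7%. For CAGCTG they were 47.5% with it and 52.3% without it in members, and 92.5% and 77.6% in the others. These shares are descriptions, since letters could be read only where reads lay.

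**Figure D3:**
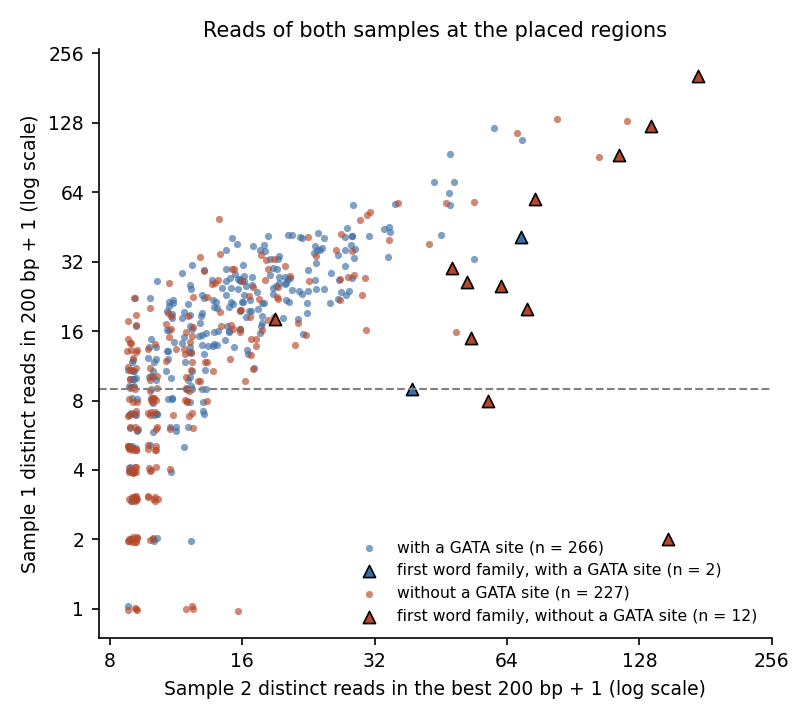
Distinct reads of sample 2 in the best 200 bp (x axis) and of sample 1 in the matching 200 bp (y axis), each plus 1 and on a log scale, for the placed regions without (red) and with (blue) a GATA site; triangles are regions of the first word family and the dashed line marks 8 reads. Points were moved slightly at random to separate them. Members with 8 or 9 sample 2 reads spread down to 0 reads in sample 1.

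The next question was which other motifs lay in the members. An E-box CANNTG, the site of Scl with its partner, was read within 100 bp of the summit in 158 of 252 members (62.7%, exact binomial 95% interval 56.4 to 68.7) and in 189 of 277 regions with a GATA site (68.2%, 62.4 to 73.7), and in 65.6% of all 529. The 6 letters of an E-box are common, and the difference did not pass (adjusted p = 0.413 by Fisher's exact test with 12 motifs tested). CAGCTG, the E-box with GC at its centre, was read in 43 members (17.1%) and 67 others (24.2%; adjusted p = 0.160 by Fisher's exact test), and in 20.8% of all regions. Among regions with at least 12 reads it was read in 16% of 100 members and 31.1% of 167 others, which passed (Fisher's exact test, adjusted p = 0.0238). Without regions of near matches these shares were 18.9% and 31.7% and did not pass (adjusted p = 0.173 by Fisher's exact test). In members it was densest at the centre, with 2.17 sites per kb of read bases within 25 bp of the summit against 0.528 at 200 to 500 bp. The regions with a GATA site showed 2.76 and 0.641 per kb over the same distances.

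CACCTG, the E-box with CC at its centre, was the motif read more often in members. It was present in 43 members (17.1%, exact binomial 95% interval 12.6 to 22.3) and in 25 regions with the site (9.03%, 5.93 to 13.03), or 12.9% of all regions (Fisher's exact test, adjusted p = 0.0252). Of the 284 E-boxes read in members, 16.9% were CACCTG and 17.96% CAGCTG, against 8.16% and 22.96% of the 331 in the others. CACATG made up 20.4% and 12.1%, and a single member of the second word family held 12 of the members' E-boxes. With at least 12 reads and without regions of near matches, CACCTG was read in 24.3% of 74 members and 6.71% of 164 others (Fisher's exact test, adjusted p = 0.00457). This setting was added after the data had been seen. CACCTG did not pass with an 8-fold limit (16.2% and 8.70%, adjusted p = 0.0965) or without regions of high background (15.02% and 8.95%, adjusted p = 0.178, both by Fisher's exact test). Nor did it pass with at least 90% of bases read (19.1% of 47 members and 7.96% of 113 others, adjusted p = 0.218 by Fisher's exact test). Within 50 bp of the summit the shares were 8.53% and 4.31% and did not pass (Fisher's exact test, adjusted p = 0.149). The same held with the 4 letters GATA as the site (adjusted p = 0.0533) and with letters seen in at least 2 reads (adjusted p = 0.791, both by Fisher's exact test). With all bases read, where 2 members were left, the difference changed sign.

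Within 100 bp of the summit the density of CACCTG was higher in members than in the others. Members held 1.49 sites per kb within 25 bp, 1.60 from 25 to 50 bp and 1.09 from 50 to 100 bp. Farther out they held 0.837 from 100 to 200 bp and 1.34 from 200 to 500 bp. The rate within 25 bp in members was thus near that at 200 to 500 bp. In the regions with a GATA site the rates were 0.622, 0.796, 0.518, 0.805 and 1.40 per kb over the same distances. This pattern by distance was not tested.

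MGGAAR, the core of sites for ETS factors such as Fli1 and Erg, was read in 128 members (50.8%) and 179 of the others (64.6%), or 58.0% of all regions, and the difference passed (Fisher's exact test, adjusted p = 0.00893). It did not hold where more bases were read: among regions with at least 90% of bases read the core was present in 76.6% of 47 members and 68.1% of 113 others (adjusted p = 0.588), and per readable position the test did not pass either (adjusted p = 0.117, both by Fisher's exact test). In members the core fell from 6.63 sites per kb within 25 bp to 3.27 at 200 to 500 bp. AACNG, the core of MYB sites, was read in 57.5% of members and 71.8% of the others, or 65.03% of all (Fisher's exact test, adjusted p = 0.00858). It can share letters with WGATAR, and with those sites masked the shares were 57.5% and 67.9% (adjusted p = 0.0603 by Fisher's exact test). With at least 90% of bases read they were 80.9% and 76.1%.

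The RUNX core TGYGGT was read in 62 members (24.6%) and 81 others (29.2%), or 27.0% of all, and did not pass (Fisher's exact test, adjusted p = 0.413). In members it occurred 2.63 times per kb within 25 bp and 0.912 times at 200 to 500 bp. Of the regions with at least 12 reads it was read in 18% of 100 members and 34.7% of 167 others (Fisher's exact test, adjusted p = 0.0199). Without regions of near matches these shares were 21.6% and 35.4%, and the difference no longer passed (adjusted p = 0.173 by Fisher's exact test). Within 50 bp of the summit, where 340 regions lacked WGATAR, the core was read in 13.2% of them and in 23.7% of 232 others, and this difference passed (Fisher's exact test, adjusted p = 0.00969). The other 6 motifs were the E-box CATMTG, the AP-1 site, the CACCC box of Krüppel-like factors, the GC box GGGCGG, the CCAAT box and the E-box CACGTG. Their shares lay within 4.57 percentage points between the classes and had adjusted p-values of 0.413 to 1.0 by Fisher's exact test. All 529 regions held them at 23.8%, 5.67%, 34.2%, 4.91%, 13.4% and 2.08%.

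**Figure D4:**
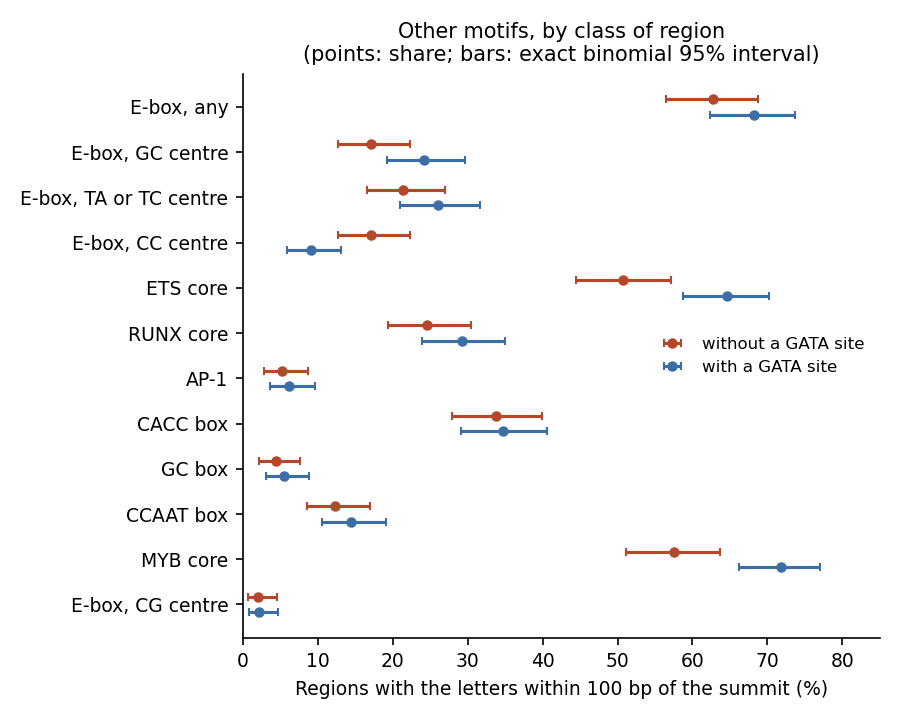
Share of regions (x axis, %) in which the letters of each motif (y axis) were read within 100 bp of the summit, for the 252 regions without (red) and the 277 with (blue) a GATA site; bars are exact binomial 95% intervals. The E-box with CC at its centre is the motif whose higher share in members passed the test. Its difference did not pass with at least 90% of bases read, with an 8-fold limit or without regions of high background. Nor did it pass within 50 bp of the summit, with the letters GATA as the site, with letters seen in at least 2 reads or with all bases read. The ETS and MYB cores are lower in members, but not where at least 90% of bases were read, and the ETS difference does not pass per readable position, nor the MYB difference with WGATAR letters masked.

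**Figure D5:**
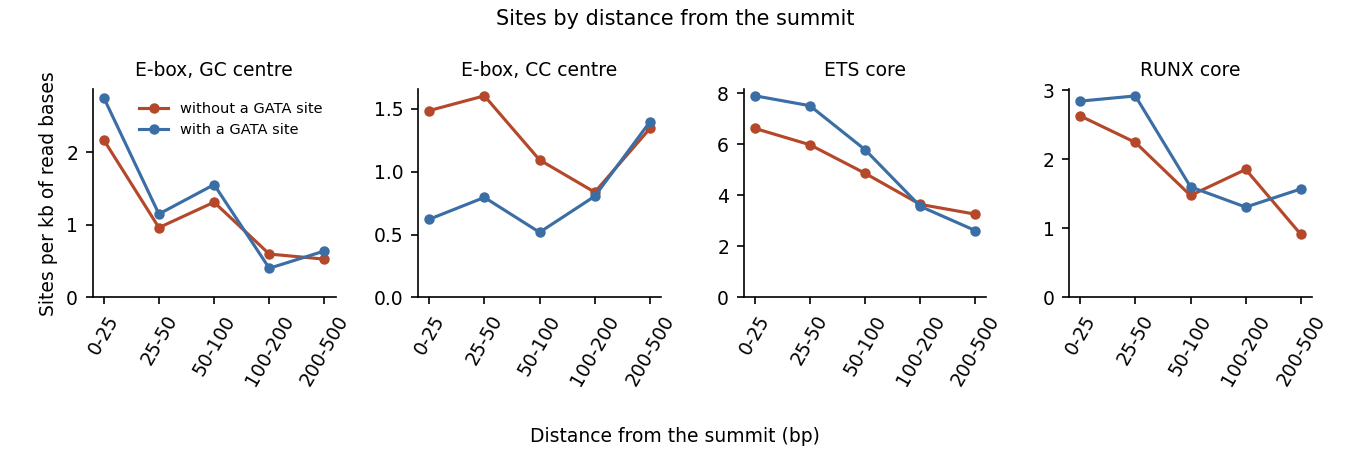
Sites per kb of read bases (y axis) in 5 classes of distance from the summit in bp (x axis) for 4 motifs, in regions without (red) and with (blue) a GATA site. The E-box with GC at its centre and the ETS core fall with distance in both classes, while the E-box with CC at its centre is low near the summit only in regions with a GATA site.

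Combinations of these letters varied among members. No E-box, ETS core or RUNX core was read in 38 members (15.1%) and in 20 of the others (7.22%). All 3 kinds were read in 20 members (7.94%) and in 37 of the others (13.4%). CAGCTG together with the ETS core was read in 23 members (9.13%) and in 40 of the others (14.4%). A group of 84 members, 33.3% of all, had a strand distance of at least 69 bp, mostly reads without a near match, and a call in sample 1. The same criteria were met by 204 of the 277 regions with a GATA site (73.6%). Among the 84, the ETS core was read in 70.2%, CACCTG in 22.6%, CAGCTG in 19.05% and the RUNX core in 33.3%, and among the 204 in 68.6%, 9.31%, 29.4% and 30.4%. This group was chosen after the values had been seen and was not tested.

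Of the members with many reads and ends apart, several held the E-boxes printed above. At chr1:39340851-39341300, with 2 CAGCTG sites, sample 2 had 29 reads in the best window at 18.6-fold. Sample 1 had 49 reads at 17.8-fold, with 15 in lane 7 and 38 in lane 8. None of its reads had a near match, and Rpl31, which encodes a ribosomal protein, had the nearest located start. At chr10:80785151-80785550, with CACCTG, a RUNX core and ETS cores, the counts were 19 and 30 reads, at 15.8-fold and 18.5-fold, and the strand distance was 153 bp. At chr9:57219301-57219700, with CACCTG and an ETS core, they were 22 and 39 reads, at 21.2-fold and 19.7-fold. At chr1:133923051-133923500, where CACCTG and an ETS core directly adjoin, they were 20 and 26 reads, at 19.6-fold and 16.9-fold. In each of them the count was higher in sample 1, which had 1.36 times as many distinct reads. The fold was higher in sample 1 only at the member on chromosome 10.

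The member at chr13:20190951-20191400 had no E-box or RUNX core among the 98.5% of its bases that were read, and 1 ETS core. It held 28 reads at 23.7-fold in sample 2 and 27 at 26.5-fold in sample 1, with ends 137 bp apart and no near match, although 50% of its reads differed from the reference. It lay at -289303 bp from the nearest located start, that of Elmo1.

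GATA letters were not absent from the members. The 4 letters GATA in a context other than WGATAR were read within 100 bp in 91 members (36.11%). Regions with the site hold these letters by definition and give no comparison, and a background rate for so short a word was not counted. WGATAR itself was read more than 100 and up to 250 bp from the summit in 48 members (19.05%) and, beside the central site, in 37 of the others (13.4%), with medians of 29.0% and 31.3% of these bases read. The stretch upstream of Sde2 printed above holds GATA letters in such another context. Counting the 4 letters GATA as a site would leave 161 members.

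The letters of the reads also decided membership in a few cases. The substitutions listed by the aligner give back the reference letters, and these held WGATAR within 100 bp in 9 members. In 8 of the 9 the site was lost through a letter from 1 read or a tie between 2 reads. At chr12:28252701-28253050 all 3 reads over the position carried another letter, T2A, counted from 1 at the first base of the 6-letter site on the plus strand. The site is written here on the strand where its complement reads WGATAR, and capitals mark its 6 positions. The region had 16 reads in sample 2 and 17 in sample 1. Sample 1 holds no letters, so the change could not be looked for there.
Reads of sample 2, chr12:28252835-28252878, mm8, plus strand: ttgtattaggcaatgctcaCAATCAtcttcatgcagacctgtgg
Reference letters, same place: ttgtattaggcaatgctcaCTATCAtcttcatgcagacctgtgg

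Position relative to genes was read from RefSeq promoters, since no annotation of mm8 was used here. Exact matches of reads to promoter sequences of build GRCm38.p6 located 12689 of 32851 starts in mm8. A word of 25 read bases matched a promoter (250 bases before to 50 after the start) in 8 members (3.17%) and 7 regions with a GATA site (2.53%; Fisher's exact test, adjusted p = 0.795). Within 10 kb of a located start lay 53 of 248 members (21.4%) and 58 of 264 others (21.97%), and within 100 kb 180 (72.6%) and 195 (73.9%). Because most starts were not located, these distances are upper limits for the nearest gene.

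The 8 members at a promoter included known genes. The summit lay 200 bp upstream of the start of Sde2, whose product acts in genome maintenance and splicing, with 36 reads at 23.4-fold in sample 2 and 57 at 29.1-fold in sample 1. Upstream of Neurl3, a ubiquitin ligase gene, the summit was at -139 bp with 16 and 21 reads. At Msh6, a mismatch repair gene, it was at -288 bp with 12 and 28 reads. At Rabgef1, which encodes a Rab exchange factor, it was at -111 bp with 9 and 10 reads, and at Pclaf, a PCNA-associated factor gene, at 34 bp with 8 and 6 reads. The remaining 3 matched the predicted genes Gm41331, Gm46074 and Gm39767. All but those at Pclaf and Gm46074 were called in sample 1.

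Of 30 haematopoietic genes listed, 10 had a located start, and 1 of them, Cbfa2t3, was the nearest start to a member. Cbfa2t3 encodes a corepressor of the Scl complex. The member at chr8:125586851-125587250 lay at -1834 bp from the start, held CACCTG but no CAGCTG, and had 29 reads at 12.5-fold in sample 2 and 47 at 13.5-fold in sample 1. Its strand distance was 161.5 bp, and none of its reads had a near match. Regions with a GATA site lay at -126, -20788 and -21468 bp of the same start, and regions with a site were nearest to 5 of the 10 genes.

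Members were spread over 21 chromosomes. Chromosomes 8, 1 and 17 held 39, 34 and 33, together 42.1% of the members, against 29.2% of the regions with a GATA site. On chromosome 2, 12 members stood beside 26 regions with the site, and on chromosome 10 there were 3 beside 11. Sample 2 held 2.34, 2.03 and 2.503 distinct reads per kb on chromosomes 8, 1 and 17, against a median of 1.55 on the other autosomes, and the part of this density in the members' numbers was not tested.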

How the data were processed

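DNA from a single Scl immunoprecipitation in HPC-7 cells gave 2 samples of 1 group. Sample 1 was aligned to mm9 with the Solexa software and sample 2 to mm8 with Eland, per the text deposited with the series, with no version stated. Each line of sample 1 holds a read's place and a score, which the authors deposited with no stated meaning and which was not used. Sample 2 gives letters, place and numbers of matches with 0, 1 and 2 errors.

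The region rule of the opening was applied with an effective genome of 1.9e+09 bp, merging within 200 bp and at least 20% of reads per strand. Letters were the majority of distinct reads, and ties counted as unread. Regions were placed in mm9 where at least 15 read ends within 250 kb, or 10 within 50 kb, coincided at one offset, 2 times the next best, leaving out 1 kb each side. Offsets were used only for counting. Two-sided Fisher's exact tests were adjusted by Benjamini-Hochberg over 12 motifs or 5 shares, with a threshold of 0.05. Calling, motif search and placement were tested on simulated data. Named regions were those with the most reads among all, with ends apart, with each of 3 motifs, or at a promoter; CACCTG examples were added after its test. Members, lists and tests were chosen with earlier results of these data known. Python 3.11.15, numpy 2.4.6, scipy 1.17.1 and pandas 2.3.3 were used. Files of reads without a unique place were not used.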

Additional observations from a re-analysis of the deposited data

How the results depend on the processing

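No paired analysis was possible because the samples form a single group. Without sample 2 there are no regions, and without sample 1 only the sample 1 results have no value, so lanes 7 and 8 were each used alone for these. The number of members was 252 as reported, 100 with at least 12 reads, 98 within 150 bp of the summit, 47 and 2 with 90% and 100% of bases read, and 161 with the letters GATA as the site; under the other 10 settings tried and with reference letters it lay within 1.5 times. The number of motifs that passed was 3 as reported, 0 with 90% and 100% of bases read and with letters seen in at least 2 reads, 1 with GATA as the site, and 1 with at least 12 reads and no regions of near matches, the last an alternative added after the data had been seen. The differences in strand distance and near matches (50 percentage points each), 2-fold enrichment in sample 1 (0) and the sample 1 call, which turned to 8.33 percentage points, were not called with 100% of bases read, where 2 members were left. The 2-fold share differed by -1.43 percentage points with at least 12 reads and no near matches, and did not pass. In groups of like sample 2 reads, the call differed by -10.9 (10 to 12 reads) and -12.6 percentage points (21 or more) without passing. The call passed under lane 7 (15.5% and 28.7%) and lane 8 alone (42.3% and 70.1%), an 8-fold limit, a 50 kb background, all reads, and without coincident ends. Settings without regions of near matches, with WGATAR masked or with reference letters were added after the data had been seen. So were the groups of like sample 2 reads and the near matches among regions with ends apart.

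Differences of single motifs (members less others, in percentage points) changed sign as follows, none passing after the change. With 90% of bases read MGGAAR was at 8.45, AACNG at 4.74 and TGASTCA at 5.33, and with 100% CACCTG was at -16.7, MGGAAR at 25 and AACNG at 33.3. With 2 agreeing reads AACNG was at 5.21. CACCC was at 1.29 (8-fold limit), 4.39 (GATA), 2.69 (low background), 0.0020 (per position), 1.82 (no near matches) and 1.65 (also 12 reads). CACGTG was at 0.331 (8-fold limit), 0.401 (12 reads), 0.314 (50 bp), 0.0128 (low background), 3.1e-05 (per position), 0.985 (reference letters), 0.0853 (no near matches) and 0.742 (also 12 reads). CCAAT was at 1.24 (GATA), 0.0048 (per position) and 2.19 (12 reads, no near matches), GGGCGG at 0.0256 (low background) and 0.0494 (12 reads, no near matches), and CANNTG at 0.0245 (per position). The cause was not tested. CACCTG kept its side of the threshold in 7 of 14 alternatives.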
